A study of Caenorhabditis elegans with 6 samples.

Results

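The nematode-specific peptide families nspa, nspb, nspc, nspd and nspe are 5 groups of short, closely related genes of the roundworm Caenorhabditis elegans. They were taken here by name, as every gene of the deposited table called nspa, nspb, nspc, nspd or nspe with a number, which gave 64 genes of 46748. The nspc family had 20 of them, nspa, nspb and nspd had 12 each, and nspe had 8. The families were put forward with the read counts of these libraries in view, so their levels and the differences between strains are given as descriptions.

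The study measured RNA of whole gravid adult worms in 6 libraries, 2 for each of 3 strains. SIN is strain OD1175 and WT is strain OD1463. Worms of both carried 2 transgenes in homozygous form together with the csr-1(tm892) allele, also homozygous, and were picked by how they moved from among the offspring of balanced heterozygous mothers. N2 is the laboratory wild-type strain and carried neither transgene. All worms grew at 20 °C on OP50 bacteria, and each library came from 100 picked adults and 500 ng of total RNA. By general knowledge of this study, SIN carries a csr-1 transgene whose product cannot slice RNA and WT carries a csr-1 transgene with normal slicing activity; the labels do not spell this out. SIN against WT therefore compares 2 strains that share the tm892 allele and the way the worms were isolated, while N2 differed from both in these respects. The labels do not say that the replicates came from separate cultures, so the spread between them may be technical.

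CSR-1 is an Argonaute protein of the C. elegans germline that is loaded with small antisense RNAs, called 22G RNAs after their usual length and first base, that match many germline transcripts. The nsp genes encode short peptides found in nematodes. The nspd peptides are known in C. elegans as products of genes expressed in sperm, like the major sperm protein (MSP), the abundant cytoskeletal protein that drives the crawling of nematode sperm. An adult hermaphrodite makes its sperm before it turns to oocytes and then stores and uses them up.

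Total counts lay between 33739391 and 44962816 reads per library. The csr-1 gene itself had 2913 and 3308 CPM (counts-per-million) in the SIN libraries, against 662 and 636 in WT and 445 and 476 in N2, and the counts do not tell a transgene's reads from those of the tm892 allele. Genes with enough reads for a test numbered 15404, and SIN and WT differed at 25.5% of them, with 12.1% called higher in SIN and 13.3% called lower (edgeR quasi-likelihood test, Benjamini-Hochberg adjusted p below 0.05). SIN and N2 differed at 25.6%, with 12.3% called higher and 13.3% lower, and WT and N2 at 0.11%. The higher and lower shares moved with the scaling: 65.5% of the calls between SIN and WT were higher in SIN with upper-quartile scaling, against 47.7% with TMM scaling, and 59.6% against 48.2% between SIN and N2. The median log2 difference of all genes was 0.04 between SIN and WT, -0.07 between SIN and N2 and -0.03 between WT and N2. The 3 comparisons share libraries with one another. Whole worms were measured, so fewer cells of a type and less RNA per cell cannot be told apart.

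The families differ in how their genes lie in the genome (build WBcel235, Ensembl 115 annotation). All 20 nspc genes are on chromosome X, in 3 blocks in which no gap exceeds 100 kb. The first holds nspc-1 to nspc-7 at X:8534672-8542283, the second nspc-8 to nspc-15 at X:12342289-12361159, and the third nspc-16 to nspc-20 at X:14523575-14530207. They span 7.612, 18.871 and 6.633 kb. Their coding sequences are 303 to 309 bases long, which is 101 to 103 residues, and nspc-8 and nspc-11 are annotated as pseudogenes. The 12 nspd genes are instead scattered over chromosomes I, II, III, IV and V, have 1 exon each, and encode 70 to 73 residues; nspd-11 and nspd-12 are annotated as pseudogenes. All 8 nspe genes, of 71 to 75 residues, lie on chromosome II at II:12612518-12629384. The nspa genes are the shortest, with 34 residues in the 10 that are coding, and nspa-11 and nspa-12 are annotated as pseudogenes. Of the 12 nspa genes, 9 lie in 1 block of 140.834 kb at V:14750353-14891186. The nspb genes, of 79 to 86 residues, lie on chromosomes II, III and IV.

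Of the 64 genes, 13 had no read in any library and 26 had a total of at most 3, these 13 included; 32 had enough reads to enter the test. The tested genes were 14 of 20 in nspc, 9 of 12 in nspd, 7 of 8 in nspe, 2 of 12 in nspa and none of 12 in nspb. Over the 6 libraries nspc had 24799 reads, nspe 4099, nspd 1710, nspa 218 and nspb 37, of 30863 for all families. Members of a family resemble one another, and the sources used here do not say whether reads matching several places were counted, so the split of reads among members is uncertain. The pairs nspa-1 and nspa-3, nspa-4 and nspa-5, nspa-6 and nspa-7, and nspc-2 and nspc-6 carry 1 shared symbol each in the current annotation.

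**Figure D1:**
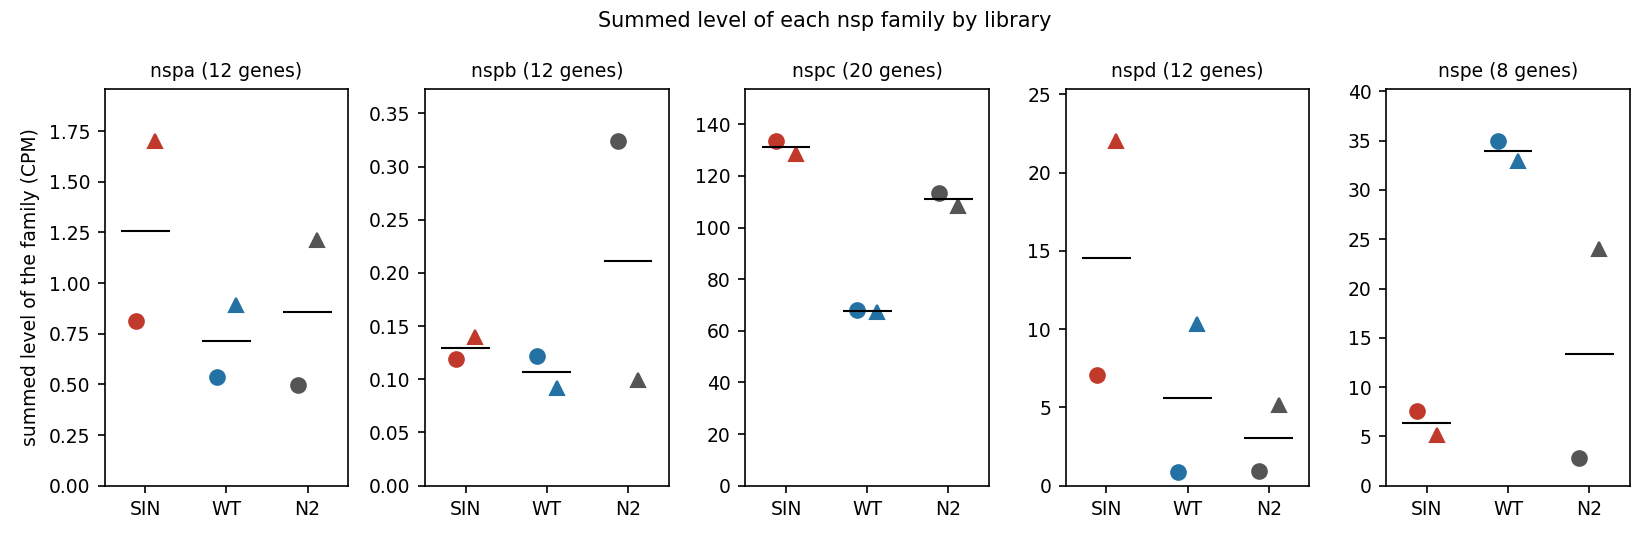
Summed CPM of each family in every library, on linear axes that start at 0, with SIN, WT and N2 from left to right. Circles are replicate 1, triangles are replicate 2 and bars are the mean of the 2; nspc is low in both WT libraries, nspe is high in both, and nspd is higher in replicate 2 than in replicate 1 of every strain.

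The summed nspc level was higher in SIN than in WT, in every library. It was 134 and 129 CPM in the SIN libraries, against 68.1 and 67.2 CPM in WT and 114 and 108 in N2. WT was the strain that stood low, and the 2 replicates of each strain were close together. The means were 131 ± 3.598 CPM in SIN, 67.7 ± 0.594 in WT and 111 ± 3.76 in N2 (SD, n = 2 each). SIN was thus 1.94-fold above WT and 1.18-fold above N2, and WT was 1.64-fold below N2. Beneath these sums lay 5591 and 4606 reads in SIN, 2784 and 2191 in WT and 5252 and 4375 in N2.

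Among the 14 nspc genes tested, 11 were called higher in SIN than in WT and none lower, where 12.1% of all genes were called higher. The families were put forward with these counts in view, so this number is a description. The 3 that were not called were nspc-3, nspc-5 and nspc-7. Both SIN libraries lay above both WT libraries for 13 of the 14, all but nspc-3, against 38.4% of all genes. The median log2 difference was 0.98 and the range -0.17 to 3.56. Between SIN and N2 none of the 14 was called by edgeR or DESeq2, where 25.6% of all genes were called by edgeR. In the edgeR fit 1 of the 14 had an unadjusted p below 0.05, as had 6251 of all 15404 genes. Both SIN libraries lay above both N2 libraries for 10 of the 14, against 29.6% of all genes. The log2 differences ran from -0.12 to 0.61 with a median of 0.21. Between WT and N2 edgeR called only nspc-16, lower in WT, where 0.0649% of all genes were called lower and 0.0454% higher; WT lay below N2 in both libraries for 13 of 14, against 27.7% of all genes, and the median log2 difference was -0.81. With any 1 SIN or WT library left out, 2 of the 11 calls between SIN and WT held, those of nspc-16 and nspc-18, while the calls over all genes dropped from 3922 to between 361 and 609. Between WT and N2 the edgeR fit gave an unadjusted p below 0.05 for 12 of the 14, and for 3091 of all 15404 genes. DESeq2 called 7 nspc genes lower in WT, where it called 4.37% of all genes lower. Without N2 replicate 1 edgeR called 4 nspc genes lower in WT than in N2, where 2.49% of all genes were, without N2 replicate 2 it called 10, where 15.1% were, and without any 1 SIN or WT library it called 0. The edgeR call of nspc-16 between WT and N2 was lost in 5 of 12 other ways of running the test.

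The difference between SIN and WT was not even along the chromosome. The third block summed to 27.5 and 26.9 CPM in SIN, against 9.34 and 9.85 CPM in WT and 21.2 and 24.3 in N2, so that SIN was 2.83-fold above WT. The second block, with 65.7 and 62.3 CPM in SIN, 33.2 and 34.3 CPM in WT and 55.8 and 52.3 in N2, was 1.89-fold higher in SIN than in WT. The first block, with 40.4 and 39.3 CPM in SIN, 25.5 and 23.0 CPM in WT and 36.5 and 31.7 in N2, was 1.64-fold higher in SIN than in WT. WT against N2 followed the same order of blocks: WT was 2.37-fold below N2 in the third, 1.60-fold below in the second and 1.40-fold below in the first. The third block held 20.6% and 20.9% of all nspc reads in SIN, 13.7% and 14.7% in WT and 18.7% and 22.4% in N2. The difference between blocks was not tested.

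**Figure D2:**
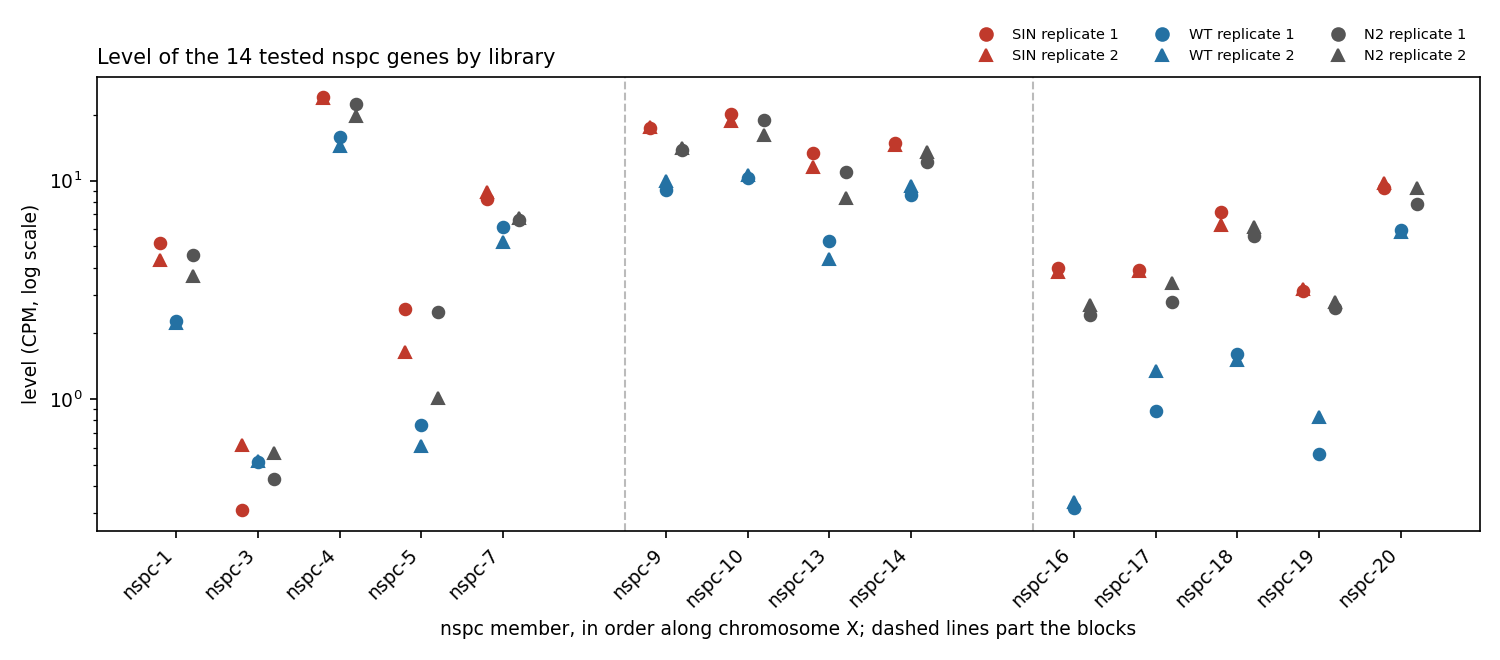
CPM (log axis) of the 14 tested nspc genes in their order along chromosome X, with dashed lines between the 3 blocks. Each gene has the SIN, WT and N2 libraries from left to right; nspc-16 to nspc-19 have the widest gap between WT and the other strains, and nspc-3 has none.

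In the third block nspc-16 had the widest gap. It was covered by 166 and 137 reads (3.97 and 3.82 CPM) in SIN, against 13 and 11 reads (0.318 and 0.338 CPM) in WT and 112 and 109 reads (2.42 and 2.70 CPM) in N2. The WT libraries were far below the other 4, and SIN lay a little above N2. The log2 difference was 3.56 ± 0.29 (SE) for SIN over WT, 0.61 ± 0.24 for SIN over N2 and -2.95 ± 0.29 for WT over N2.

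Its neighbours nspc-17, nspc-18 and nspc-19 had the same order of strains. The nspc-18 gene measured 7.19 and 6.28 CPM in SIN, 1.61 and 1.504 CPM in WT and 5.598 and 6.11 in N2, a log2 difference of 2.11 ± 0.22 for SIN over WT and -1.91 ± 0.22 for WT over N2. The nspc-19 gene had 3.13 and 3.18 CPM in SIN, 0.562 and 0.829 CPM in WT and 2.62 and 2.79 in N2, and its log2 difference was 2.19 ± 0.30 for SIN over WT. The nspc-17 gene had 3.90 and 3.85 CPM in SIN, 0.880 and 1.35 CPM in WT and 2.79 and 3.39 in N2, and its log2 difference was 1.80 ± 0.31. All 3 were called higher in SIN than in WT, and their SIN and WT libraries did not overlap. The last gene of the block, nspc-20, differed less, with 9.30 and 9.74 CPM in SIN, 5.97 and 5.83 CPM in WT and 7.80 and 9.28 in N2 and a log2 difference of 0.69 ± 0.18 for SIN over WT.

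In the second block 4 genes were tested, nspc-9, nspc-10, nspc-13 and nspc-14, and all were called higher in SIN than in WT. The largest of these log2 differences, 1.36 ± 0.22, belonged to nspc-13, with 13.3 and 11.5 CPM in SIN, 5.31 and 4.39 CPM in WT and 10.9 and 8.34 in N2. The nspc-10 gene had 20.1 and 18.6 CPM in SIN, 10.3 and 10.6 CPM in WT and 18.9 and 16.3 in N2, and its log2 difference was 0.90 ± 0.15. SIN and N2 stood close together for both genes and WT stood apart below them. The nspc-9 gene had 17.4 and 17.7 CPM in SIN, 9.07 and 9.91 CPM in WT and 13.8 and 14.1 in N2, a log2 difference of 0.88 ± 0.15 for SIN over WT. The nspc-14 gene had 14.8 and 14.5 CPM in SIN, 8.58 and 9.45 CPM in WT and 12.2 and 13.6 in N2, a log2 difference of 0.70 ± 0.16.

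In the first block the most abundant gene of the family, nspc-4, had 24.1 and 23.8 CPM in SIN, 15.8 and 14.5 CPM in WT and 22.4 and 19.7 in N2. Its log2 difference for SIN over WT was 0.66 ± 0.14 and it was called, as was nspc-1 at 1.07 ± 0.24, which had 5.19 and 4.33 CPM in SIN, 2.27 and 2.24 CPM in WT and 4.58 and 3.66 in N2. The other 3 tested genes of the block were not called. The nspc-7 gene had 8.27 and 8.90 CPM in SIN, against 6.16 and 5.22 CPM in WT and 6.59 and 6.73 in N2. Its log2 difference was 0.37 for SIN over N2 and -0.23 for WT over N2, so N2 stood nearer WT. The nspc-5 gene had 2.58 and 1.65 CPM in SIN, against 0.758 and 0.614 CPM in WT and 2.51 and 1.01 in N2. Both had their SIN libraries above their WT libraries. The nspc-3 gene overlapped, with 0.311 and 0.614 CPM in SIN, against 0.513 and 0.522 CPM in WT and 0.432 and 0.569 in N2.

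The abundant genes nspc-4, nspc-10, nspc-9 and nspc-14 held 19.4%, 15.3%, 13.2% and 11.8% of the family's mean level. Per kilobase of the deposited gene length, nspc-4 averaged 65.6 CPM in SIN, 41.4 in WT and 57.6 in N2, nspc-10 averaged 50.4 in SIN, 27.1 in WT and 45.6 in N2, and nspc-9 averaged 49.2 in SIN, 26.7 in WT and 39.2 in N2. On the same scale nspc-16 reached 10.2 in SIN, 0.860 in WT and 6.72 in N2. The gene with the widest gap between strains was thus far from the most abundant. The 6 nspc genes that could not be tested were nspc-2, nspc-6 and nspc-15, with no read, the pseudogenes nspc-8 and nspc-11, with 1 read each, and nspc-12, with 3.

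In the authors' deposited table, which gives log2 differences of SIN to WT with adjusted p-values, 13 of the 14 nspc genes with an adjusted p had one below 0.05 and were higher in SIN, where 12.8% of the 15160 genes with an adjusted p were, and nspc-16 had a log2 difference of 2.69. These values rest on the same libraries. The edgeR fit gave nspc-16 a larger log2 difference, 3.56, and why the log2 differences differ was not tested.

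The nspd family differed between replicates of every strain. No gene of it was called between strains in edgeR's fit of the group means after genes with few reads were filtered out. The summed nspd level was 7.07 and 22.04 CPM in SIN, against 0.905 and 10.3 CPM in WT and 0.929 and 5.14 in N2. Replicate 2 was 3.12-fold above replicate 1 in SIN, 11.4-fold above it in WT and 5.54-fold above it in N2. The means were 14.6 ± 10.6 CPM in SIN, 5.61 ± 6.65 in WT and 3.04 ± 2.98 in N2 (SD, n = 2 each). The SIN and WT libraries overlapped, because SIN replicate 1 lay below WT replicate 2, while both SIN libraries lay above both N2 libraries. The read counts were 296 and 790 in SIN, 37 and 336 in WT and 43 and 208 in N2.

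No nspd gene was called in any of the 3 comparisons by that fit, where 25.5%, 25.6% and 0.11% of all genes were called. With no filter on low counts edgeR called 8 nspd genes higher in SIN than in N2 and 4 higher than in WT. Of all genes the unfiltered fit called 2613 and 2736 higher. DESeq2 called 1 nspd gene, nspd-7, higher in SIN than in N2, beside 12.9% of all genes, and none in the other comparisons. Between WT and N2 DESeq2 gave an adjusted p to only 22 members of all families, against 32 tested by edgeR. In the filtered edgeR fit an unadjusted p below 0.05 was found for 2 nspd genes between SIN and N2 and for 0 in the other comparisons. Of all 15404 genes 6251 had one between SIN and N2, 6083 between SIN and WT and 3091 between WT and N2. With the replicate number added to the edgeR fit as a block, 7 nspd genes were called higher in SIN than in N2. In that blocked fit 2 were called higher in SIN than in WT, and 0 between WT and N2. Of all genes it called 2390 higher in SIN than in N2 and 2409 higher than in WT. The labels do not say that a replicate number marks a batch. The 9 tested genes had positive log2 differences in all 3 comparisons. The median was 1.17 for SIN over WT, 2.07 for SIN over N2 and 1.08 for WT over N2. Both SIN libraries lay above both WT libraries for 2 of the 9, nspd-6 and nspd-7, against 38.4% of all genes, and above both N2 libraries for 6 of the 9, against 29.6%. WT lay above N2 in this way for none, against 25.4%. In all 9 genes replicate 2 was at least 2-fold above replicate 1 in each of the 3 strains, which held for 1.32% of all tested genes.

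The size of the strain difference depended on which library was used. Without SIN replicate 2 the log2 difference of the summed level for SIN over WT was 0.33, and without WT replicate 2 it was 4.02, where all libraries gave 1.38. For SIN over N2 the values without 1 library ran from 1.22 to 3.96, around 2.26. For WT over N2, at 0.88 with all libraries, the sign turned to -1.71 without WT replicate 2, and the value was 0.12 without N2 replicate 1, 1.77 without WT replicate 1 and 2.60 without N2 replicate 2.

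Of single genes, nspd-1 had 70 and 213 reads in SIN, 4 and 68 in WT and 4 and 38 in N2. Its log2 difference was 1.82 ± 1.44 (SE) for SIN over WT and 2.90 ± 1.52 for SIN over N2. The second in abundance, nspd-7, was the steadiest of the 4 leading genes, with 83 and 168 reads in SIN, 17 and 55 in WT and 22 and 45 in N2. Its SIN libraries overlapped with neither of the other strains, and the log2 difference was 1.68 ± 0.78 for SIN over WT and 2.07 ± 0.79 for SIN over N2.

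The nspd-2 gene had 50 and 146 reads in SIN, 2 and 79 in WT and 2 and 53 in N2, so SIN replicate 1 fell below the second replicate of both other strains. The nspd-5 gene had 23 and 63 reads in SIN, 4 and 35 in WT and 0 and 17 in N2. Together nspd-1, nspd-7, nspd-2 and nspd-5 held 23.3%, 22.3%, 19.6% and 8.40% of the family's mean level. The other 5 tested genes, nspd-3, nspd-4, nspd-6, nspd-9 and nspd-10, had between 0 and 61 reads in a library. Of these nspd-6 had 42 reads in SIN over the 2 libraries, against 8 in WT and 3 in N2, a ratio of 15.6 for SIN over N2 with a counting interval of 4.99 to 78.8. The pseudogene nspd-11 had 1 read in SIN and 3 in N2, and nspd-8 and nspd-12 had none.

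**Figure D3:**
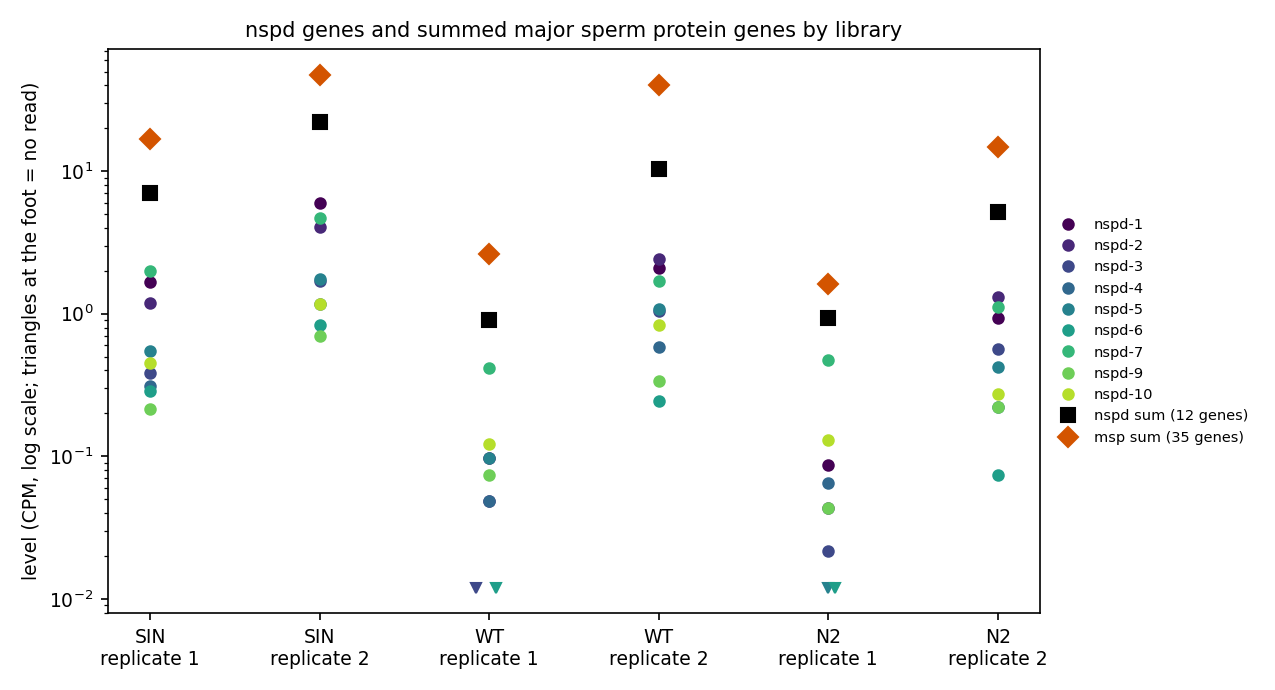
CPM (log axis) in every library for the 9 tested nspd genes, for the sum of the 12 nspd genes (black squares) and for the sum of the 35 msp genes (orange diamonds). Triangles at the foot stand for libraries with no read; the nspd and msp sums take nearly the same order of libraries, with replicate 2 above replicate 1 in SIN, WT and N2.

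Of the sperm marker lists, the msp genes moved with the nspd sum. The 35 msp genes, of which msp-32 and msp-74 had no read, summed to 16.8 and 47.4 CPM in SIN, 2.64 and 40.4 CPM in WT and 1.62 and 14.7 in N2. Replicate 2 of msp was 2.82-fold above replicate 1 in SIN, 15.3-fold above it in WT and 9.09-fold above it in N2, and 23 of the 24 tested msp genes were at least 2-fold higher in replicate 2 in every strain. The nspd reads amounted to 42.05% and 46.53% of the msp reads in SIN, 34.3% and 25.5% in WT and 57.3% and 34.9% in N2. As with nspd, none of the 24 msp genes was called in any comparison by the fit of the group means, where 25.5%, 25.6% and 0.11% of all genes were called. Their median log2 difference was 0.61 for SIN over WT, 2.25 for SIN over N2 and 1.48 for WT over N2.

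The 12 ssp genes, which encode small proteins related to MSP, summed to 9.80 and 17.7 CPM in SIN, 6.04 and 10.9 CPM in WT and 7.41 and 6.70 in N2, and 4 of the 7 tested showed the 2-fold rule between replicates in every strain. None of these 7 was called between SIN and WT, and 1 was called higher in SIN than in N2, where 12.3% of all genes were. A list of 22 genes that act in making or activating sperm ran another way. It summed to 296 and 232 CPM in SIN, against 88.7 and 90.2 CPM in WT and 62.6 and 57.7 in N2, with both SIN libraries above the other 4 and no common lead of replicate 2. Of its 20 tested genes, 9 were called higher and 1 lower in SIN than in WT, where 12.1% of all genes were called higher and 13.3% lower. Against N2, 8 were called higher in SIN, where 12.3% of all genes were, and 0 lower. In WT 1 was called higher than in N2, where 0.0454% of all genes were. Only gsp-3 and gsp-4 of this list, a pair of sperm protein phosphatases, showed the 2-fold rule between replicates in every strain; together they had 3.27 and 9.99 CPM in SIN, 0.318 and 2.55 CPM in WT and 0.0432 and 0.816 in N2, and were singled out after their values were seen. The part of the sperm markers in the nspd differences was not tested. No gene of the lists for oocytes and eggshell, yolk, male soma, uterus, intestine, pharynx, epidermis and cuticle, or early embryos showed this 2-fold rule.

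The nspe family stood the opposite way to nspc: its level was lower in SIN than in WT. The summed level was 7.53 and 5.11 CPM in SIN, against 34.99 and 32.93 CPM in WT and 2.77 and 23.97 in N2. SIN and WT were far apart with close replicates, while the 2 N2 libraries lay on either side of SIN. The means were 6.32 ± 1.71 CPM in SIN, 34.0 ± 1.46 in WT and 13.4 ± 14.99 in N2 (SD, n = 2 each). SIN was 5.38-fold lower than WT. The difference from N2 was not settled, since the log2 difference of SIN over N2 was -1.08 with both N2 libraries, -1.93 without N2 replicate 1 and 1.19 without N2 replicate 2. WT over N2, at 1.35, was 0.50 without N2 replicate 1 and 3.62 without N2 replicate 2.

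The sums of a pair of somatic marker lists stood in a like order, each carried by a few abundant genes. The 5 epidermis and cuticle genes summed to 372 and 762 CPM in SIN, 871 and 1235 CPM in WT and 419 and 1327 in N2. The 5 intestine genes summed to 258 and 374 CPM in SIN, 587 and 670 CPM in WT and 344 and 619 in N2. For both sums, as for nspe, WT lay above SIN and N2 replicate 1 lay well below N2 replicate 2. Among single genes this order of the N2 replicates held for col-19, bli-1, act-5, vha-6 and ifb-2. It was reversed in dpy-7 (8.80 and 0.445 CPM), rol-6 (0.454 and 0.0247 CPM) and lin-26 (128 and 112 CPM). It was also reversed in ges-1 (21.4 and 18.8 CPM) and elt-2 (8.04 and 5.47 CPM). The cuticle collagen gene col-19 made up 83.9% of the first sum in SIN, 90.6% in WT and 85.7% in N2, and 2 of the 4 tested genes of that list, dpy-7 and bli-1, had positive log2 differences for SIN over WT. Of the intestine genes, act-5, vha-6 and ifb-2 had lower values in SIN than in WT, while ges-1 and elt-2 had positive log2 differences of 0.55 and 0.15. The part of these markers in the nspe difference was not tested. The 4 pharynx genes summed to 50.9 and 79.1 CPM in SIN, 85.3 and 101 CPM in WT and 98.5 and 130 in N2.

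The remaining lists did not set N2 replicate 1 apart in this way. The 11 oocyte and eggshell genes summed to between 9228 and 10998 CPM in the 6 libraries and the 6 yolk genes to between 40261 and 53672 CPM. Of 2 uterus and somatic gonad genes the sum was 5.26 and 5.75 CPM in SIN, 6.28 and 6.47 CPM in WT and 8.11 and 7.69 in N2. The male-specific gene try-5 had 1.82 and 0.921 CPM in SIN, 0.220 and 0.338 CPM in WT and 0.648 and 0.445 in N2. The 7 early embryo genes summed to 4.37 and 4.02 CPM in SIN, 8.26 and 7.64 CPM in WT and 19.9 and 8.66 in N2.

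Of the 7 tested nspe genes, nspe-6 and nspe-8 were called lower in SIN than in WT and none higher, where 13.3% of all genes were called lower. The count was 1 with upper-quartile scaling and 6 with no filter on low counts, where 1227 and 3031 of all genes were called lower. It was 4 with only the SIN and WT libraries, where 22.4% of all genes were called lower. With 1 SIN or WT library left out, the log2 difference of the summed level for SIN over WT ran from -2.74 to -2.18. In the fit of only the SIN and WT libraries, nspe-6 and nspe-8 were not tested, so its 4 calls were of other nspe genes. Both SIN libraries lay below both WT libraries for 6 of the 7, all but nspe-4, against 35% of all genes, and the median log2 difference was -2.30. In the other comparisons no nspe gene was called by edgeR's filtered fit of the group means. Of all genes 25.6% were called between SIN and N2 and 0.11% between WT and N2. DESeq2 called 1 nspe gene, nspe-5, lower in SIN than in N2, beside 14.8% of all genes. Between WT and N2 it called none, but gave only 22 members of all families an adjusted p there. In the edgeR fit 2 nspe genes had an unadjusted p below 0.05 between SIN and N2, as had 6251 of all genes. Between WT and N2 there were 3 nspe genes, and 3091 of all. With no filter edgeR called 4 nspe genes lower in SIN than in N2 and 2 higher in WT than in N2. Of all genes it called 3309 and 798. Without N2 replicate 1 edgeR called 5 nspe genes lower in SIN than in N2, beside 18.9% of all genes, and without N2 replicate 2 it called 2 higher, beside 15.7%. For WT over N2 it called 1 nspe gene higher without N2 replicate 1, beside 1.53% of all genes, and 5 without N2 replicate 2, beside 10.9%. Both SIN libraries lay below both N2 libraries for 3 of the 7, against 33.1% of all genes. WT lay above N2 in this way for 3, nspe-6, nspe-7 and nspe-8, against 25.4%, and below it for nspe-4, against 27.7%.

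The called genes had few reads. The nspe-6 gene had no read in either SIN library, against 11 and 10 in WT and 3 and 8 in N2, which makes SIN at least 7.40-fold lower than WT, taking 3 counts over the SIN libraries as the floor. The nspe-8 gene had 1 and 0 reads in SIN, against 18 and 9 in WT and 0 and 4 in N2, a ratio of 28.5 between WT and SIN with a counting interval of 4.70 to 1169. Intervals and floors cover counting error only. Neither gene was tested in the fit of only the SIN and WT libraries. The call of nspe-6 was lost with any SIN or WT library left out. That of nspe-8, just inside the threshold, was lost without either SIN library and without WT replicate 2, the gene was not tested without WT replicate 1, and the call was also lost with DESeq2 and with upper-quartile scaling.

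In WT most of the nspe level came from nspe-7, which held 67.8% of it, against 49.4% in SIN and 26.9% in N2. The gene had 4.01 and 2.23 CPM in SIN, against 23.3 and 22.7 CPM in WT and 0.648 and 6.55 in N2. WT lay above the other 4 libraries; the log2 difference was -2.88 ± 0.96 (SE) for SIN over WT and 2.68 ± 0.95 for WT over N2. Without nspe-7 the summed level of SIN over WT had a log2 difference of -1.78 in place of -2.43, and that of WT over N2 was 0.17 in place of 1.35.

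The nspe-1 gene, which held 31.7% of the level in SIN, 19.9% in WT and 37.7% in N2, was the most abundant member in N2. It had 2.06 and 1.95 CPM in SIN, 7.38 and 6.14 CPM in WT and 0.670 and 9.40 in N2. The nspe-2 gene had 0.621 and 0.391 CPM in SIN, 2.25 and 1.60 CPM in WT and 0.238 and 4.03 in N2. The nspe-5 gene had 0.287 and 0.251 CPM in SIN, 1.03 and 1.66 CPM in WT and 0.411 and 3.12 in N2. In each of these 3 genes N2 replicate 2 was the highest library. The exception was nspe-4, with 0.502 and 0.279 CPM in SIN, 0.342 and 0.215 CPM in WT and 0.735 and 0.569 in N2, where SIN and WT overlapped. The last member, nspe-3, had 1 read in all. In the table that the authors deposited, 5 nspe genes had an adjusted p. The gene nspe-7 was below 0.05 and lower in SIN, as were 16.9% of all genes with an adjusted p. Its deposited log2 difference of SIN to WT was -0.97, with the authors' adjusted p of 0.0356. The edgeR fit gave -2.88, and the deposited mean RPKM of nspe-7 was 9.88 in SIN and 67.5 in WT. Why the log2 differences differ was not tested.

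**Figure D4:**
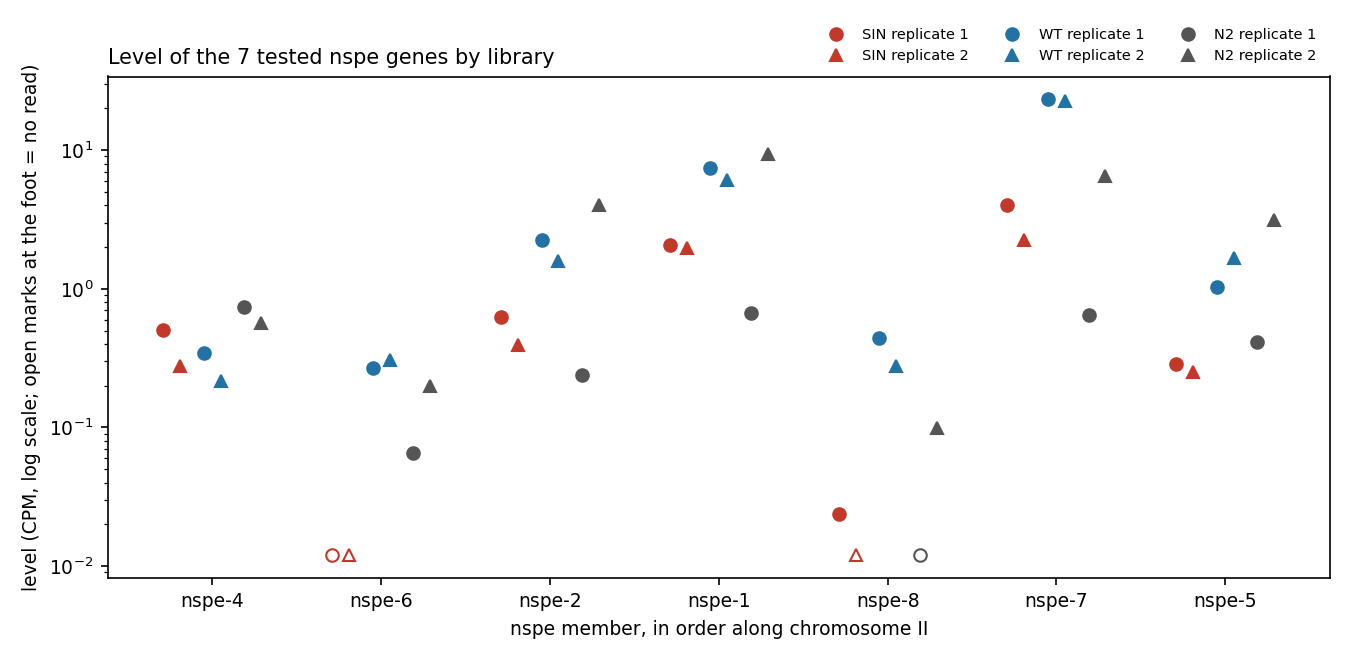
CPM (log axis) of the 7 tested nspe genes in their order along chromosome II, with the SIN, WT and N2 libraries of each gene from left to right. Open marks at the foot are libraries with no read; SIN lies below WT in 6 genes, and N2 replicate 1 lies below N2 replicate 2 in all but nspe-4.

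The nspa and nspb families were close to the limit of detection. The 12 nspa genes together had 34 and 61 reads in SIN, 22 and 29 in WT and 23 and 49 in N2, which is 0.813 and 1.70 CPM in SIN, 0.538 and 0.890 CPM in WT and 0.497 and 1.21 in N2. The strains overlapped. Of this level 69.6% came from nspa-8, which overlaps a gene on the other strand (W06A7.4), and 27.1% from nspa-5. The nspa-8 gene had 24 and 33 reads in SIN, 20 and 21 in WT and 18 and 37 in N2, and nspa-5 had 9 and 25 in SIN, 1 and 7 in WT and 5 and 11 in N2. Neither was called in any comparison by edgeR's fit of the group means. Of all genes 25.5% were called between SIN and WT, 25.6% between SIN and N2 and 0.11% between WT and N2. DESeq2 called neither, but between WT and N2 it gave only 22 members of all families an adjusted p. In the edgeR fit 0 had an unadjusted p below 0.05. For nspa-5 both SIN libraries lay above both WT libraries, against 38.4% of all genes. The replicate block called nspa-5 higher in SIN than in WT, beside 2409 of all genes. The log2 difference for SIN over WT was 0.40 ± 0.53 for nspa-8 and 1.97 ± 1.02 for nspa-5. Next came the pseudogene nspa-11, with 2.35% of the family's mean level, and nspa-9, with 0.543%, and 7 nspa genes had no read.

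The 12 nspb genes had 5 and 5 reads in SIN, 5 and 3 in WT and 15 and 4 in N2. Their most abundant members were nspb-10, nspb-12, nspb-4 and nspb-5, with 22.28%, 22.05%, 17.04% and 12.18% of a mean level that was 0.130 ± 0.0142 CPM in SIN, 0.107 ± 0.0214 in WT and 0.212 ± 0.159 in N2 (SD, n = 2 each). In nspb-12, 8 of its 9 reads fell in N2 replicate 1. Differences between strains were not detectable at this depth.

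The deposited table also lists 22G RNAs found with CSR-1 in other work, and these set the families apart in another way. In the columns headed Conine, a CSR-1 immunoprecipitate (IP) value, in RPM (reads-per-million), was given for 8 of the 12 nspa genes and 8 of the 12 nspd genes (66.7% each), and for no nspb, nspc or nspe gene. Of 19641 protein-coding genes, 27.7% had one. The lowest value listed for any gene was 5.004 RPM, and the lowest ratio of IP to input was 2.00, so a gene with no value has no measured level here.

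**Figure D5:**
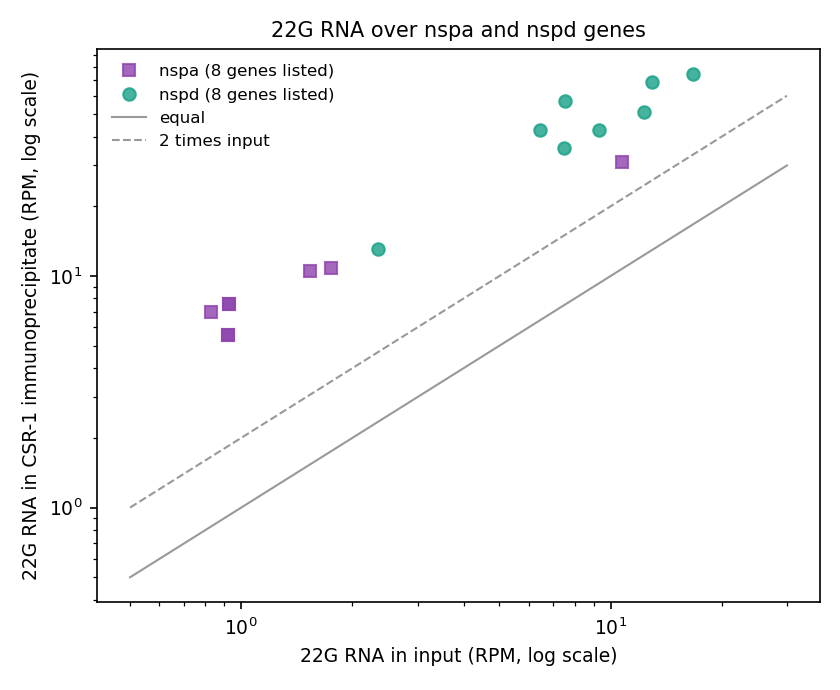
Deposited 22G RNA level in the CSR-1 IP (vertical axis, RPM) against the input (horizontal axis, RPM) for the 8 nspa and 8 nspd genes with a value, on log axes, with lines at equal levels and at 2 times the input. All points lie above both lines, nspd genes mostly to the upper right of nspa genes, and some nspa points coincide.

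The nspd genes listed were nspd-1 to nspd-7 and nspd-9. Their IP values ran from 13.1 to 74.2 RPM, with a median of 47.0, and nspd-6 was the highest. The nspa values were lower, from 5.54 to 31.1 RPM with a median of 7.58, where all listed genes had a median of 36.9. The enrichment over the input was alike in both: 4.17 to 7.53 times with a median of 5.07 for nspd, and 2.91 to 8.42 times with a median of 6.55 for nspa, beside a median of 6.09 for all listed genes. As the deposited fraction of IP over the sum of IP and input, these are 0.807 to 0.883 for nspd and 0.744 to 0.894 for nspa. The values of nspa-1 and nspa-3 were identical, at 7.58 RPM, and so were those of nspa-6 and nspa-7, at 5.54 RPM; each pair shares a symbol in the current annotation. A further 22G column, headed Claycomb, listed none of the 64 genes, where it listed 20.8% of protein-coding genes.

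Of the germline columns only that of microarray data gave a similar division. Genes enriched in the germline by microarray (the column headed Reinke) included 8 of the 12 nspd genes, nspd-1 to nspd-8, and 5 of the 12 nspa genes, but no gene of the other families; they held 14.7% of protein-coding genes. The nspd-8 gene was among them although it had no read in any of the 6 libraries. Genes expressed in the germline by serial analysis of gene expression (the column headed Wang) included nspd-2, nspd-3, nspd-5 and nspd-10. Of the nspc family they held nspc-4 alone, and they held no nspa, nspb or nspe gene, where 23.4% of protein-coding genes were included. None of the 64 was in the germline-specific class, which held 5.36% of protein-coding genes.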

How the data were processed

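Polyadenylated RNA of 6 libraries was made with a stranded kit and read as 50-base single-end reads on 1 lane, per the labels' protocols, with RNA integrity numbers of 7.9 to 8.9. Build WBcel235 and the tools STAR, HTSeq, DESeq and DESeq2, without versions, stand in the submitters' processing notes; the sources used here do not give the annotation release, the strand setting or the treatment of multiply mapping reads. The deposited table of 46748 genes holds whole-number read counts per gene and library. The authors' deposited RPKM values are 1 mean for each strain. The authors also deposited the log2 fold change of SIN to WT with its adjusted p-value. From other studies the deposited table carries 22G levels in RPM, a fraction of IP over IP plus input, a 22G score headed Claycomb with no stated scaling, and germline marks.

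The counts were tested with edgeR 4.0.16 in R 4.3.3: filterByExpr (minimum count 10, total 15) kept 15404 genes and removed at most 0.0476% of the counts of a library, TMM scaling, robust quasi-likelihood fit of 3 group means, Benjamini-Hochberg over all genes tested. The biological coefficient of variation was 0.219 on 3 residual degrees of freedom. No library was averaged or pooled before the test. CPM are the counts over TMM-scaled library sizes, and family sums include untested members; a log2 difference of sums is that of mean CPM. With 2 libraries against 2 an exact permutation test cannot go below a two-sided p of 0.333, so sums carry no test. Ratios of small counts have exact 95% intervals. The scripts were tested on simulated data. The members and the marker lists were chosen with earlier results of these data known. Genes named are all members called in a comparison, the 4 most abundant members of each family, csr-1, and members that complete a family's account. Alternatives were RLE and upper-quartile scaling, no filter, a replicate block, fitting only the 2 groups compared, DESeq2 1.42.0, library totals in place of TMM, and leaving out each library or each family's most abundant gene. Positions are from Ensembl 115, which held all 64 member IDs and 46449 of the table's IDs. Marker genes plg-1, vet-4 and ule-1 to ule-5 were not matched by name. Sequences of the members were not used here.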

Additional observations from a re-analysis of the deposited data

How the results depend on the processing

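The number of members called between SIN and WT, 13, was 21 with no filter on low counts and 2 to 19 with 1 library left out; over all genes, 3922 calls became 6521 with only the groups compared and 361 to 6751 with 1 library left out. Between SIN and N2, where edgeR called 0 members and 5 had an unadjusted p below 0.05, no filter gave 12, the replicate block 8 (7 nspd genes higher and 1 nspe gene lower), DESeq2 2 and leaving out a library 0 to 5; over all genes, 3942 became 5922 with no filter, 1914 with only the groups compared and 704 to 6028 with 1 library left out. Between WT and N2, 1 member became 2 with RLE scaling, 9 with no filter, 3 with the replicate block, 0 with only the groups compared, 7 with DESeq2 and 0 to 15 with 1 library left out, and over all genes 17 became 29, 2217, 253, 0, 1164 and 0 to 4201 in the same order, and 10 with upper-quartile scaling. The cause was not tested; a fit with a library left out has 1 sample in a group, assumed to vary like the others. The replicate block called 17 members and 4898 genes between SIN and WT. Among the members were nspd-1, nspd-7 and nspa-5, all higher in SIN and not called by the fit of group means. Between SIN and N2 the block called 4907 genes over all genes, 2390 of them higher in SIN. Same-numbered libraries deviated together (correlations 0.344, 0.377 and 0.237), but the labels do not say that a number marks a batch. The summed nspc log2 difference of SIN over WT was 1.09 with upper-quartile scaling, 1.06 with library totals and 1.03 without nspc-4, against 0.95; of SIN over N2 0.32 with upper-quartile scaling and 0.31 with library totals, against 0.24; and of WT over N2 -0.77 with upper-quartile scaling and -0.77 without nspc-4, and -0.74 to -0.65 with 1 library left out, against -0.71. Without its most abundant gene, nspa was at 1.79 for SIN over WT and nspe at -1.78. With 1 library left out, nspe ran from -1.93 to 1.19 for SIN over N2 and from 0.50 to 3.62 for WT over N2. Of the 14 calls of single members, 13 held with DESeq2, 13 with upper-quartile scaling, 13 with no filter and 14 with RLE scaling and with the replicate block; none changed sign in any setting run. The nspa family had 218 reads and nspb 37 over all libraries, which limits what could be detected in them.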

Other observations

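Genes next to the blocks gave a local comparison. Within 20 kb of the 3 nspc blocks on chromosome X, 6, 7 and 7 other genes had enough reads to be tested. None was called higher in SIN than in WT, where 12.1% of all genes were called higher. In the same order of blocks, 2, 1 and 0 were called lower, where 13.3% of all genes were. So few genes limit the comparison. The median log2 difference of these neighbours for SIN over WT was -0.20, 0.04 and 0.16, beside 0.66, 0.89 and 2.11 for the tested nspc genes of the same blocks.

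In SIN against WT, 13.3% of all genes were called lower. Of 7 tested genes within 20 kb of the nspe block on chromosome II, 1 was called lower in SIN than in WT. This gene, Y38E10A.14, lies at II:12623110-12624533 between nspe-8 and nspe-7 and was singled out after its values were seen. It had 17.9 and 15.2 CPM in SIN, 60.7 and 61.5 CPM in WT and 8.58 and 6.80 in N2. The log2 difference was -1.88 ± 0.16 (SE) for SIN over WT, with an adjusted p of 0.00136 from edgeR, 1.11 ± 0.16 for SIN over N2, with an adjusted p of 0.00643 from edgeR, and 2.99 ± 0.17 for WT over N2, with an adjusted p of 0.00452 from edgeR. WT was thus high for Y38E10A.14 as for nspe-7, and both N2 libraries were low for Y38E10A.14 where the nspe sum of N2 replicate 2 was not. Another neighbour, Y38E10A.28, had 2.34 and 1.48 CPM in SIN, 3.50 and 4.11 CPM in WT and 1.58 and 1.73 in N2. Its log2 difference was -0.99 ± 0.31 for SIN over WT and 1.20 ± 0.31 for WT over N2, and it was not called. The median log2 difference of the 7 neighbours for SIN over WT was 0.11.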
